A study of Mus musculus with 8 samples.

Results

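Protein tyrosine phosphatases remove phosphate from tyrosine residues and so oppose tyrosine kinases. The nonreceptor class lacks a membrane-spanning segment, and its members are told apart by the domains beside a shared catalytic domain, such as SH2 domains, FERM and PDZ domains, or a PEST-rich tail. In epithelium they are known for acting on growth factor receptors, JAK and STAT proteins, focal adhesions and cell junctions, and some members are best known from blood cells. Described here are 10 genes of this class (Ptpn1, Ptpn2, Ptpn3, Ptpn6, Ptpn9, Ptpn11, Ptpn12, Ptpn13, Ptpn14 and Ptpn22), taken as a named list from 25353 genes and unnamed transcripts tested. Every noncontrol probe whose transcript accession mapped to one of them was taken, which gave 22 of the 56605 probes, and all 22 were well above background on all 8 arrays. The 10 genes were selected on their levels in these 3 groups, which were already known, so the differences below are descriptions and support nothing beyond themselves.

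The cells were TEC71, an immortalized mouse line derived from medullary thymic epithelium. The control (3 arrays) had received Cas9 nickase with 1 guide RNA, per the labels. Clone 1 (3 arrays, knockin#1 in the labels) and clone 3 (2 arrays, knockin#3) carry the T1211A change in Gtf2i (spelled Gtfi2i in that label), the gene of the transcription factor TFII-I. Each knock-in group is therefore a single clone, and all groups share the line and the medium. The labels do not say whether arrays of a group came from separate cultures, so their spread may be technical. P-values of other genes then measure only that spread. Levels are log2 processed signals minus the log2 of their array's 75th percentile, a difference of 1 is a doubling, and levels of different genes are not comparable because probes differ.

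The brightest of the 3 probes of the edited gene Gtf2i lay at 4.41 ± 0.05 on the control arrays (mean ± SD, n = 3). The other probes of Gtf2i are not given. The brightest probe was lower in clone 1, at 3.96 ± 0.07 (n = 3), and in clone 3, at 3.82 ± 0.03 (n = 2). The limma adjusted p was 0.00754 and 0.00421. A probe signal does not read a point change, so it does not check the edit. All 9 epithelial markers of the check were above background on every array, though Epcam (-1.10 and -1.01) and Krt5 (-1.32 and -1.13) fell, Krt19, Cldn4 and Cldn7 rose, and the other 4, Krt8 among them, did not pass in either clone. Of 8 markers of the thymic medulla or thymic epithelium, 5 were above background on every array, Aire on part of them, and Psmb11 and Ccl21a on none. Among those 5, Ltbr fell (-0.52 and -0.79) and Pax9 rose (0.47 in each clone). Foxn1, Cldn3 and Tnfrsf11a did not pass in either clone. The 75th percentile of the processed signal ran from 268 to 377 over the arrays. The first clone 1 array stood apart in its brightest spike-in signal, 2797 against 17164 to 30390 on the others. It is also the only knock-in array in the slide row that holds the controls. A fit with the array row as a block therefore ties both clones to the controls through that array alone. For clone 3 such a fit adds the difference between the clones in the other slide row, so it is no independent check.

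Promoter windows are shown for Ptpn22 and Ptpn3, which had the largest mean differences from the control, and for Ptpn6, which was higher than the control. TFII-I is known to bind initiator elements and E-boxes, so the E-box letters CANNTG are in capitals, searched on both strands (the pattern reads the same on each). Each window runs from 250 bases before to 50 bases after a RefSeq transcript start on GRCm38.p6. Ptpn22 has windows at chr3:103859545-103859844 and chr3:103860027-103860326 on the plus strand, Ptpn3 at chr4:57301788-57302087 and Ptpn6 at chr6:124738660-124738959, both on the minus strand.
Ptpn22 upstream start: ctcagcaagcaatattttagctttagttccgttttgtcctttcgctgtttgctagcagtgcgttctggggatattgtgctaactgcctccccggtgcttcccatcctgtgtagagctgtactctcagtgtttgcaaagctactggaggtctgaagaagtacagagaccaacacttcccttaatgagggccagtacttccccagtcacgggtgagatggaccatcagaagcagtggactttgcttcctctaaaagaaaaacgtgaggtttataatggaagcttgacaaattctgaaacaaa
Ptpn22 downstream start: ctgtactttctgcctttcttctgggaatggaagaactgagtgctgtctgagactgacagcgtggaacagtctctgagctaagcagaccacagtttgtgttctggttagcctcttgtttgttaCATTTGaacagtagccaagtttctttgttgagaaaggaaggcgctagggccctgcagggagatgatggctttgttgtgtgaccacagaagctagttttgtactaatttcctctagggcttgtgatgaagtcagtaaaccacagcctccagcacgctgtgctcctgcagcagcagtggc
Ptpn3: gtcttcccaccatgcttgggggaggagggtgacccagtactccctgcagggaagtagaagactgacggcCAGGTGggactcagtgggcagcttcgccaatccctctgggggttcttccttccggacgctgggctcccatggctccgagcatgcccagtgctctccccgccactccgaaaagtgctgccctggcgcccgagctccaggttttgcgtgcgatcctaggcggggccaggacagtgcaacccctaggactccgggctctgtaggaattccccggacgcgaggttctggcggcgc
Ptpn6: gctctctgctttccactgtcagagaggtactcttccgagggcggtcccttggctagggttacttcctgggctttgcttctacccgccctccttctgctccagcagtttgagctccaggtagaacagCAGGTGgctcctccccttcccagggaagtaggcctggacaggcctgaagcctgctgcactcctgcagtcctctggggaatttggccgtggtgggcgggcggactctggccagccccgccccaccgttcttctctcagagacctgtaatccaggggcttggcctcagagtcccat
The table held 9 windows for 8 of the 10 genes, the others being Ptpn2 and Ptpn12. CANNTG stood in 3 of the 9 windows, the downstream Ptpn22 start, Ptpn3 and Ptpn6, and in 72.3% of all 32851 windows. The narrower E-box CACGTG, which is one form of CANNTG, stood in 0 of the 9 and in 7.15% of all windows. A match is a run of letters and not a site.

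Against the control, 4 of the 10 genes (Ptpn22, Ptpn3, Ptpn12 and Ptpn2) were lower in both clones and 1 (Ptpn6) was higher in both at limma's adjusted threshold of 0.05, and 5 did not pass in either clone. Over all genes and unnamed transcripts 31.1% passed in clone 1, 14.7% higher and 16.5% lower. In clone 3 the share was 30.2%, 13.3% higher and 17% lower. In both clones with the same sign it was 23.5%, 11.3% higher and 12.2% lower. Nothing is read from the members' counts, because these levels chose the members. Only Ptpn22 in clone 1 and Ptpn22 and Ptpn3 in clone 3 differed by at least 2-fold, where 8.76% and 10.3% of all tested did so and passed. The median difference over the 10 was -0.04 in clone 1 and -0.07 in clone 3, beside -0.05 and -0.04 over all tested. In size, without the sign, the median was 0.43 and 0.44, beside 0.28 and 0.31 over all tested. Arrays of clone 1 and control did not overlap for 7 of the 10 genes (46.5% of all tested), and those of clone 3 and control for 7 (55.7%). Both comparisons use the same 3 control arrays.

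**Figure D1:**
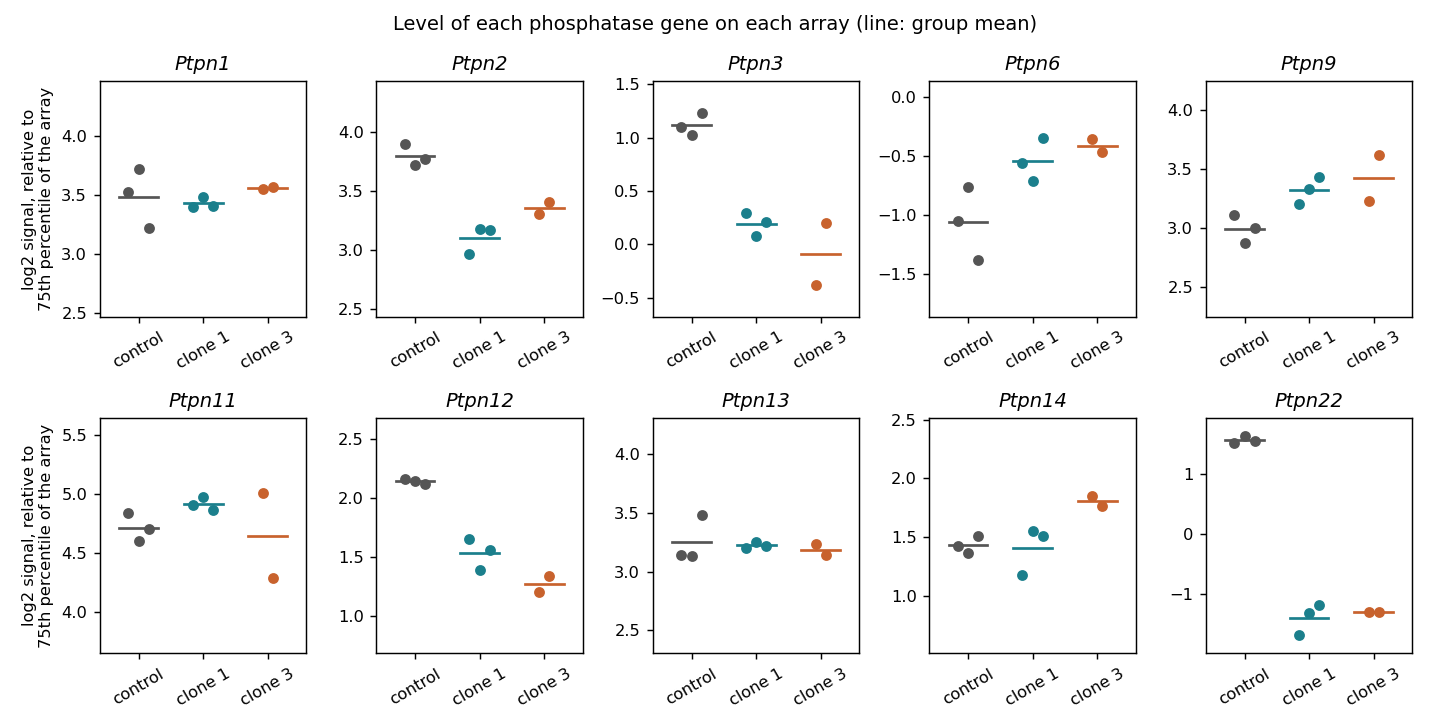
Level of the brightest probe of each gene on each of the 8 arrays (points) with the group mean (line), as log2 signal over its array's 75th percentile. Each panel has its own vertical range, and the 5 knock-in arrays of Ptpn22 sit between -1.68 and -1.17, below the controls at 1.51 to 1.63.

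The PEST-type members were both lower. Ptpn22 encodes a phosphatase best known from lymphocytes, where it acts with the kinase Csk to restrain antigen receptor signalling. Its level was 1.51, 1.63 and 1.55 on the control arrays, -1.68, -1.31 and -1.17 in clone 1, and -1.29 and -1.30 in clone 3. Every knock-in array lay below every control, and the clones overlapped each other. The gene was lower by 7.72-fold in clone 1 (log2 difference -2.95, SE 0.14, n = 3) and by 7.25-fold in clone 3 (-2.86, SE 0.16, n = 2). It has a single probe, so no second probe checks the value. With the array row as a block the differences were -3.24 and -3.30, and without the first clone 1 array the clone 1 value was -2.80, all of them past the threshold.

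Blood cell markers were read beside Ptpn22 and Ptpn6, which blood cells express strongly. Of 14 markers 6 were above background on all 8 arrays (Cd3e, Cd4, Cd79a, Itgam, Csf1r and Coro1a) and 7 on none (Cd3g, Cd8a, Adgre1, Lyz2, Laptm5, Vav1 and Tyrobp). Ptprc, the common leukocyte antigen, was above background on 1 control array and no knock-in array. Coro1a rose in clone 1 (0.82, limma adjusted p = 0.0385) and did not pass in clone 3 (0.63, adjusted p = 0.133). The summed level of the list, in multiples of the 75th percentile signal, was 9.37 to 13.3 on the controls, 9.57 to 13.9 in clone 1 and 12.7 to 13 in clone 3. Bulk RNA cannot tell fewer cells of a type from less RNA per cell. The part of such cells in the levels of Ptpn22 and Ptpn6 was not tested.

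Ptpn12 encodes PTP-PEST, which dephosphorylates the adhesion adaptor p130Cas and related proteins. It lay at 2.16, 2.14 and 2.12 on the controls, 1.65, 1.39 and 1.56 in clone 1, and 1.20 and 1.34 in clone 3. The groups did not overlap in any pairing, with clone 3 lowest. Its log2 difference from the control was -0.61 (SE 0.11, n = 3) in clone 1 and -0.86 (SE 0.12, n = 2) in clone 3, or 1.52-fold and 1.82-fold lower. A second probe of the same transcript gave -0.65 and -0.97. Under the row block the brightest probe gave -0.49 and -0.68, and neither passed.

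Among the FERM domain members Ptpn3 was lower, and Ptpn13 and Ptpn14 had no call. Ptpn3 encodes a FERM and PDZ domain phosphatase of the cell cortex. It lay at 1.10, 1.02 and 1.23 on the controls, 0.29, 0.08 and 0.21 in clone 1, and -0.38 and 0.20 in clone 3. All knock-in arrays were below all controls, and clone 3 had the wider spread (SD 0.41 against 0.11). Ptpn3 differed from the control by -0.92 (SE 0.16) in clone 1 and -1.21 (SE 0.18) in clone 3, or 1.90-fold and 2.31-fold lower. Without 1 or the other clone 3 array its difference was -0.92 or -1.50, past the threshold both times. The dimmer probe of the gene gave smaller differences, -0.49 and -0.50, that did not pass in the fit of single probes although its knock-in arrays also lay below all controls. Under the row block the brightest probe gave -0.83 and -1.06, neither past the threshold.

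Ptpn14 encodes a FERM domain phosphatase known for holding the coactivator YAP out of the nucleus. Its brightest probe lay at 1.43, 1.37 and 1.51 on the controls, 1.18, 1.55 and 1.51 in clone 1, and 1.85 and 1.77 in clone 3. Clone 3 lay above all other arrays, while clone 1 and the controls overlapped. The brightest probe differed by -0.02 in clone 1 (95% interval -0.31 to 0.26) and 0.38 in clone 3 (0.06 to 0.69), with no call. The clone 3 call appeared without the first clone 1 array, at the same difference of 0.38, with a variance trend, and with the mean of the 3 probes, at 0.52. The row block moved the clone 3 difference to 0.03 and the clone 1 difference to -0.25. A second probe gave 0.40 in clone 1 and 0.73 in clone 3, both past the threshold among single probes, and the third gave 0.17 and 0.46, which did not pass. All 3 probes were thus higher in clone 3, and their sign in clone 1 was not shared.

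Ptpn13 encodes a large FERM and PDZ domain phosphatase that binds Fas and ephrin-B proteins. Its brightest probe lay at 3.14, 3.13 and 3.48 on the controls, 3.20, 3.25 and 3.22 in clone 1, and 3.23 and 3.14 in clone 3. The 3 groups overlapped throughout. It differed by -0.03 in clone 1 (95% interval -0.31 to 0.25) and -0.07 in clone 3 (-0.38 to 0.24), and its sign turned under 4 of 18 alternative settings in either clone. The other 3 probes gave 0.24, 0.27 and -0.23 in clone 1 and 0.31, 0.29 and 0.11 in clone 3, and no probe of the gene passed.

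**Figure D2:**
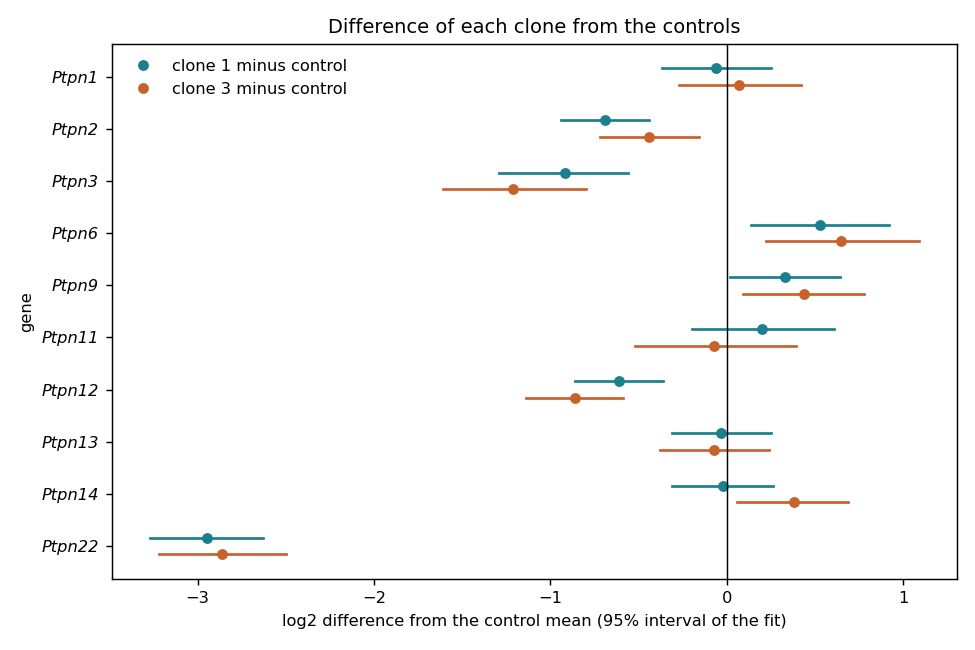
Log2 difference of clone 1 and clone 3 from the control mean for the brightest probe of each gene (points), with the 95% interval of the limma fit (bars). Ptpn22 stands at -2.95 and -2.86, and the intervals of Ptpn1, Ptpn11 and Ptpn13 span 0 in both clones.

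Ptpn2 and Ptpn1 encode close relatives, TC-PTP and PTP1B, which act on JAK kinases, STAT proteins and the insulin receptor. Ptpn2 lay at 3.90, 3.72 and 3.77 on the controls, 2.97, 3.18 and 3.17 in clone 1, and 3.31 and 3.41 in clone 3. The 3 groups did not overlap, with clone 3 between clone 1 and the control. Ptpn2 differed from the control by -0.69 (SE 0.11, n = 3) in clone 1 and -0.44 (SE 0.12, n = 2) in clone 3, and a second probe gave -0.63 and -0.55. The clone 1 value passed under all 18 alternatives, including the array row as a block (-0.82). The clone 3 call ended with that block (-0.64), with median scaling (-0.36), with no filter on dim probes (-0.44), and without control 1 (-0.39), control 3 (-0.45) or either clone 3 array (-0.39 and -0.49).

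Ptpn1 lay at 3.53, 3.72 and 3.22 on the controls, 3.40, 3.49 and 3.41 in clone 1, and 3.55 and 3.57 in clone 3. Every clone 1 and clone 3 array fell within the range of the controls. The difference was -0.06 in clone 1 (95% interval -0.37 to 0.25) and 0.07 in clone 3 (-0.27 to 0.42). The second probe gave -0.10 and -0.06.

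The SH2 domain members are Ptpn6, which encodes SHP-1 and dampens signalling mainly in blood cells, and Ptpn11, which encodes SHP-2 and relays growth factor signals to Ras. The brightest Ptpn6 probe lay at -1.05, -0.76 and -1.38 on the controls, -0.56, -0.71 and -0.35 in clone 1, and -0.36 and -0.47 in clone 3. The lowest clone 1 array lay just above the highest control, so the groups were close without overlapping. The log2 difference was 0.53 (SE 0.17) in clone 1 and 0.65 (SE 0.19) in clone 3. The clone 1 call ended whenever a single array other than control 2 was left out, at differences of 0.37 (without control 3) to 0.61 (without the second clone 1 array), and with median scaling (0.56) or no filter on dim probes (0.53). In clone 3 it ended without control 1 (0.66), control 3 (0.50) or either clone 3 array (0.60 and 0.71), and with no filter. It ended in both clones with the array row as a block (0.51 and 0.62).

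The Ptpn6 probes gave different values. A second probe of the same transcript accession gave 0.37 in clone 1 and 0.46 in clone 3, of which the clone 3 value passed among single probes. The third probe, assigned to the other Ptpn6 accession on the array, gave -0.24 and -0.27, with overlapping groups and no call. On the controls its mean of -1.04 was no lower than the -1.07 of the brightest probe. The brightest probe thus ranked above the third over the 8 arrays only through its knock-in levels, and the call of the gene depends on that choice. The mean of the 3 probes differed by 0.22 in clone 1 and 0.28 in clone 3, with no call in either.

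The brightest Ptpn11 probe lay at 4.84, 4.60 and 4.71 on the controls, 4.91, 4.98 and 4.87 in clone 1, and 5.01 and 4.29 in clone 3. Clone 1 lay above all controls, and the clone 3 arrays were the highest and the lowest of all 8. The brightest probe differed by 0.20 in clone 1 (95% interval -0.20 to 0.61) and -0.07 in clone 3 (-0.52 to 0.39), with no call. The clone 3 value was 0.29 without its second array and -0.42 without its first. The dimmer probe lay higher in both knock-in clones, at 1.26, 0.95 and 1.16 on the controls, 1.68, 1.59 and 1.33 in clone 1 and 1.74 and 1.65 in clone 3. Its difference was 0.41 in clone 1 and 0.57 in clone 3, and both passed among single probes, where 32.6% and 31.2% of 32313 probes passed.

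Ptpn9 encodes a phosphatase with a lipid-binding Sec14 domain that sits on secretory vesicles. Its single probe lay at 3.11, 2.87 and 3.00 on the controls, 3.20, 3.33 and 3.43 in clone 1, and 3.23 and 3.62 in clone 3. All knock-in arrays were above all controls, the nearest of them by little. Ptpn9 differed by 0.33 in clone 1 (95% interval 0.02 to 0.64) and 0.44 in clone 3 (0.09 to 0.78), and neither passed after adjustment. Both calls appeared under normexp background correction (0.38 and 0.40) and with a variance trend, and the clone 3 call also with median scaling (0.52), with a stricter filter, and without its first array (0.63).

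**Figure D3:**
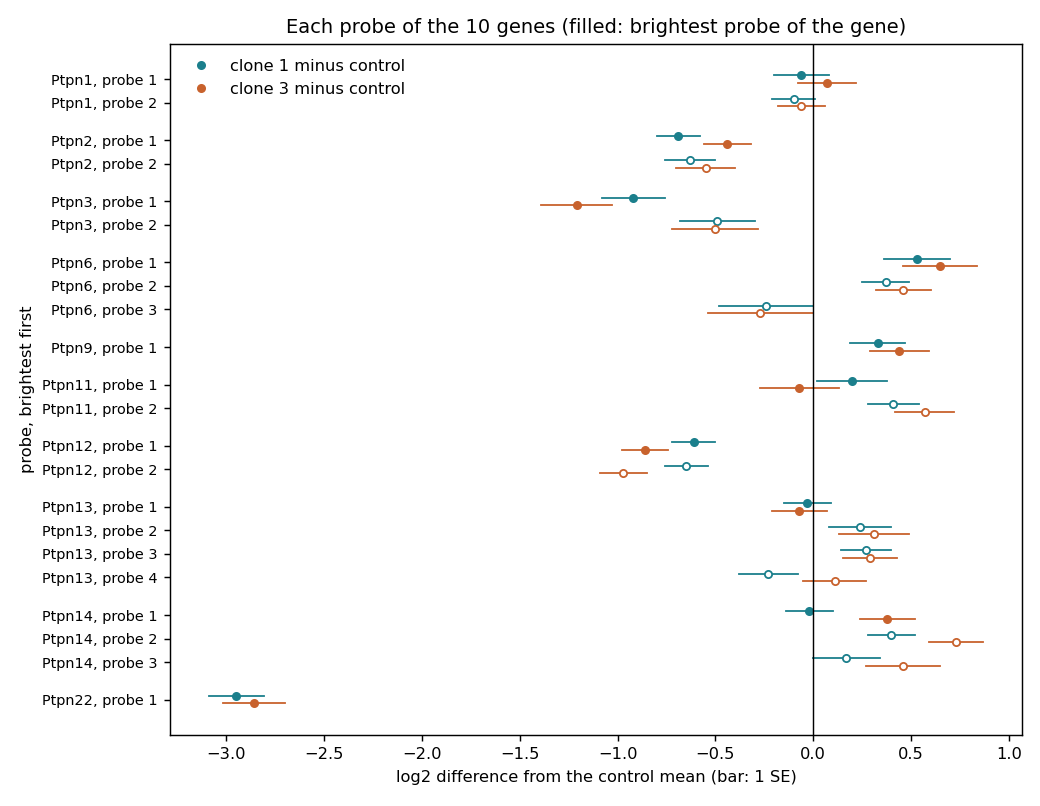
Log2 difference of clone 1 and clone 3 from the control mean for each of the 22 probes, with 1 SE from a fit of all single probes. Filled points are the brightest probe of each gene, and the third Ptpn6 probe (-0.24 and -0.27) lies on the other side of 0 from the brightest (0.53 and 0.65).

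Between the clones 0 of the 10 genes passed in limma's fit, where 0.0749% of all tested did. Of the 22 probes fitted singly 0 passed, beside 0.0681% of all probes. At an unadjusted p under 0.05 there was 1 gene, Ptpn14, with 0.40 more in clone 3 (95% interval 0.08 to 0.71). The share of all tested at that unadjusted level is not given, so nothing is read from that count. Arrays of the clones did not overlap for 4 of the 10 genes (Ptpn1, Ptpn2, Ptpn12 and Ptpn14), beside 28.5% of all tested. Clone 3 differed from clone 1 by 0.25 for Ptpn2, -0.26 for Ptpn12 and 0.13 for Ptpn1. Within the second slide row, which holds the other clone 1 arrays and both clone 3 arrays, these differences were 0.18, -0.20 and 0.11, and Ptpn14 differed by 0.28.

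Genes with the array profile most like the 2 members with the largest mean difference were found by the root mean square distance of profiles centred over the 8 arrays, among 13536 named genes. Nearest to Ptpn22 were the metallothionein gene Mt2 (0.140 log2), the adenylate kinase gene Ak1 (0.149) and the lipid phosphatase gene Plpp3 (0.168). Nearest to Ptpn3 were Clcc1 (0.082 log2), which encodes an intracellular chloride channel, Hadhb (0.091), which encodes a subunit of the mitochondrial trifunctional protein, and the pantetheinase gene Vnn1 (0.110). Their differences were -2.99 and -2.91 for Mt2 and -0.99 and -1.22 for Clcc1 in clone 1 and clone 3.

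The rest of the nonreceptor class comprised 7 genes, of which 5 were tested. Ptpn21, a FERM domain relative of Ptpn14, rose by 0.61 in clone 1 (SE 0.12, limma adjusted p = 0.00464) and 0.66 in clone 3 (SE 0.13, adjusted p = 0.00623). Ptpn18, a PEST-type relative of Ptpn12 and Ptpn22, fell by 0.70 (SE 0.12, limma adjusted p = 0.00238) and 0.46 (SE 0.13, adjusted p = 0.0287). Ptpn5, best known from neurons, differed by -1.48 and -0.96, but it was tested only through the controls. It was above background on 1 of 3 clone 1 arrays and 1 of 2 clone 3 arrays, so these values rest mostly on signals near background. Ptpn23, which acts in endosomal sorting, fell in clone 3 (-0.66, limma adjusted p = 0.0179) and not past the threshold in clone 1 (-0.40, adjusted p = 0.0772). Ptpn4, the nearest relative of Ptpn3, did not pass (-0.11 and -0.33). Ptpn7 was above background on 1 array and Ptpn20 on none. Under the row block 3 of these genes (Ptpn5, Ptpn18 and Ptpn21) passed in clone 1 and 0 in clone 3. Of all 25353 tested, 4349 and 2068 passed under it. In clone 3 Ptpn21 was then at 0.86 (limma adjusted p = 0.0523).

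Receptor-type phosphatases span the membrane. Of 20 on the array 14 were tested, of which 2 rose in both clones, 2 fell in both and 10 passed in neither. Over all tested 11.3% rose and 12.2% fell in both. Ptprz1, which binds the growth factor pleiotrophin, rose from -0.96 in the controls to 1.38 in clone 1 and 1.42 in clone 3 (2.35 and 2.39, SE 0.12 and 0.13). Ptprj, a phosphatase of growth factor receptors, rose by 0.93 in each clone. Ptpru fell by 0.65 and 0.72, and Ptpre, which acts on Src family kinases, by 0.58 and 0.63. Under the row block Ptpru lost both calls and Ptpre its call in clone 3. The list median was 0.02 in clone 1 and -0.06 in clone 3.

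**Figure D4:**
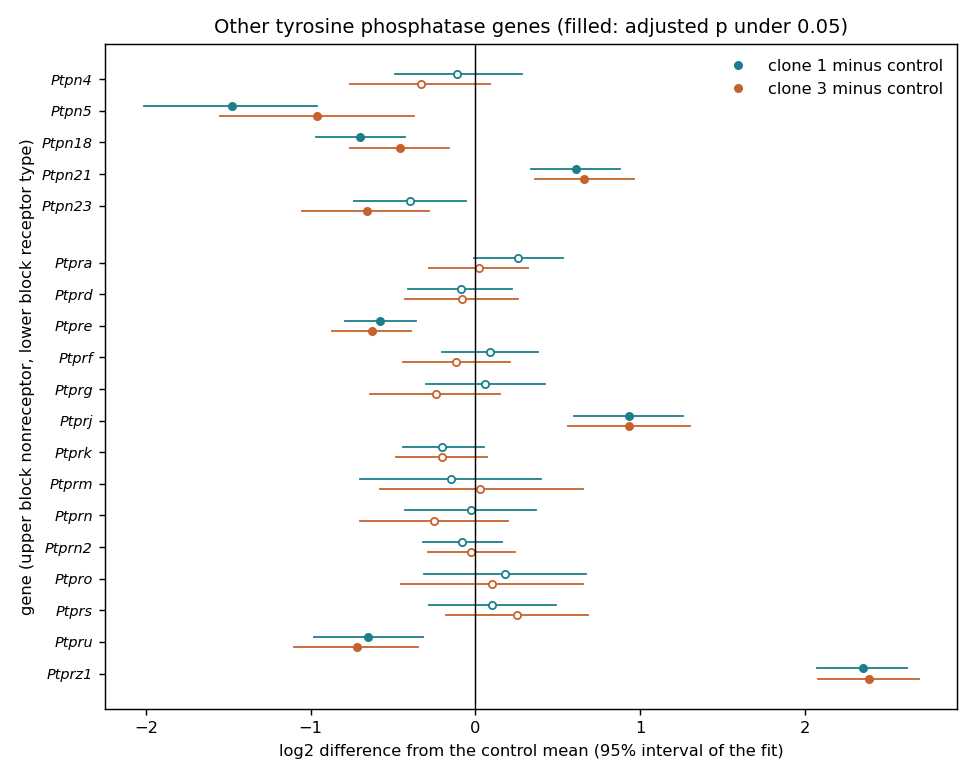
Log2 difference of each clone from the control mean for the 5 other nonreceptor and 14 receptor-type phosphatase genes tested, with 95% intervals of the limma fit. Filled points passed the adjusted threshold, and Ptprz1 stands highest at 2.35 and 2.39.

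A list of scaffolds and receptors of SHP-1 and SHP-2, together with Ras pathway adaptors, exchange factors and inhibitors, came next. Among 17 tested, 5 rose in both clones, 4 fell in both, and 8 missed the threshold in at least 1 clone. Over all tested 11.3% rose and 12.2% fell in both. Nothing is read from the counts, because the list was chosen with earlier results of these data known. Sirpa, an inhibitory receptor that recruits both SH2 phosphatases, lay at -0.05 in the controls and was above background on no knock-in array (means of -6.80 and -6.69), at least 29.7-fold lower in clone 1 and 28.5-fold lower in clone 3 (limma adjusted p = 1.11e-06 and 3.08e-06). The bound sets the control mean against the dimmest level well above background on each array of the clone, averaged over those arrays. Sirpa was tested only through the controls, so its p-values rest on knock-in signals that were not above background. Irs1, the insulin receptor substrate, rose by 2.97 and 2.98, the Ras pathway inhibitor Spry1 by 2.57 and 2.84, and the SHP-2 docking protein gene Gab2 by 1.92 and 1.64. These 4 kept their calls in both clones with the array row as a block. The list median was 0.00 in clone 1 and 0.14 in clone 3. With that block 5 of the 17 passed in clone 1, against 11 without it, and 4 in clone 3, against 10. Of all 25353 tested, 4349 and 2068 passed with it.

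Kinases and STATs on which the phosphatases act were read next. Among 24 tested, 7 passed in clone 1 and 8 in clone 3, beside 31.1% and 30.2% of all tested, and nothing particular to the list is read from that. In both clones 4 rose and 3 fell, beside 11.3% and 12.2% of all tested. The row block left 6 calls in clone 1 and 4 in clone 3, beside 4349 and 2068 of all 25353 tested. Of the 4 genes that rose in both clones only Src then passed in both. The tyrosine kinase gene Syk fell by 1.46 and 1.48, and the receptor gene Pdgfra, whose transcript is also a fibroblast marker, by 1.30 and 1.83. Of 7 fibroblast markers 2 were above background on all 8 arrays (Col1a2 and Pdgfra) and 3 on none (Thy1, Dcn and Lum). Their summed level was 0.956 to 1.2 on the controls, 0.457 to 0.618 in clone 1 and 0.474 to 0.549 in clone 3, a sum that includes Pdgfra and on the controls is mostly Pdgfra. Col1a2 did not pass (-0.13 and 0.14). Src rose by 0.98 and 1.12 and Lck, a Src family kinase of T cells, by 0.96 and 1.14, of which the Lck call in clone 3 ended with the array row as a block (limma adjusted p = 0.0721). The insulin receptor gene Insr (-0.28 and -0.36) and Stat3 (-0.07 and 0.13) did not pass, and the list median was 0.00 in clone 1 and 0.05 in clone 3.

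Among focal adhesion partners of Ptpn12, 4 of 14 tested rose in both clones, 0 fell in both, and 10 missed the threshold in at least 1. Over all tested 11.3% rose and 12.2% fell in both. The 4 that rose were Bcar1, which encodes p130Cas (0.90 and 0.68), its relative Nedd9 (0.58 and 0.51), the paxillin relative Tgfb1i1 (0.75 and 0.69) and Wasl, an activator of actin branching (0.80 and 0.52). The list median was 0.10 in clone 1 and 0.22 in clone 3. Under the row block 4 of the 14 passed in clone 1 and 0 of the 14 passed in clone 3. Of all 25353 tested, 4349 and 2068 passed under it.

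Partners of Ptpn13 and Ptpn14 were read last. Among 16 tested, 3 rose in both clones, 3 fell in both, and 10 missed the threshold in at least 1. Over all tested 11.3% rose and 12.2% fell in both. The death receptor gene Fas fell by 0.78 and 1.14, the ephrin gene Efnb1 by 0.67 and 1.13, and the kinase gene Pkn2 by 0.43 and 0.41. The clone 3 arrays of Efnb1 lay apart, at 2.50 and 1.72, beside 2.56 to 2.58 in clone 1. Wwtr1, the YAP relative TAZ, rose by 1.16 and 1.18, while Yap1 did not pass (-0.08 and 0.20). Under the row block Fas and Wwtr1 kept both calls, and Efnb1 and Pkn2 lost both. The list median was -0.04 in clone 1 and 0.05 in clone 3. Over the 6 lists 90 of 106 genes were tested, and 0 passed between the clones in limma's fit, with 7 at an unadjusted p under 0.05. Without the share of all tested at that unadjusted level, nothing is read from the 7.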

How the data were processed

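Spot signals of 8 single-colour Agilent arrays were deposited as processed intensity on a linear scale, 1 file per array. Per the submitters' processing notes the scanner software was Agilent Feature Extraction 11.5.11, and per the file headers the array design names mm9, so no probe coordinates are given. The promoter windows come from the RefSeq table of GRCm38.p6. Spot and background medians, also deposited intensity values, served for normexp only, and spot classes and flags were used as deposited. Flagged outlier spots and control spots were left out. Signals were put on a log2 scale, reduced by the 75th percentile over distinct probes, and averaged over spots. Names came from transcript accessions and RefSeq names (GRCm38.p6), which named 32994 of 56605 probes. A gene is its brightest probe, tested if all arrays of some group read it well above background. Limma 3.58.1 in R 4.3.3 fitted 3 groups at once (5 residual degrees of freedom, two-sided, Benjamini-Hochberg over 25353, threshold 0.05), and 32313 probes were also fitted singly. The fit was tested on simulated data. The number of arrays limits precision. One more blood cell marker is not reported here.

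The members, the lists and the naming rule (all members and other nonreceptor genes, and up to 4 genes of each list passing in both clones, and the 3 nearest profiles of the members with the largest mean difference) were chosen with earlier results of these data known. Genes given as not passing (Insr, Stat3, Yap1) were added after their values were seen. Alternatives were normexp with offset 50, quantile and median scaling, other filters, probe rules, variance models, thresholds, the array row as a block, and each array left out.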

Additional observations from a re-analysis of the deposited data

How the results depend on the processing

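Under the alternatives run for the 10 genes, the sign of each called difference was kept for all 5 called genes in both clones, while uncalled differences of Ptpn1, Ptpn11, Ptpn13 and Ptpn14 turned sign under at least 1 setting. The counts of members passing were 2 in clone 1 and 1 in clone 3 with the array row as a block, 1 and 2 at 2-fold or more, and in clone 3 3 with no filter on dim probes and 3 at a threshold of 0.01. They were 6 and 6 under normexp and 6 and 7 with the variance trend, against 5 and 5 in the main fit. Leaving out 1 array gave 4 to 5 members in clone 1, 3 to 6 in clone 3 and 0 between the clones. Of all genes and unnamed transcripts, 7896 passed in clone 1, 7669 in clone 3 and 19 between the clones. These became 4349 and 2068 with the array row as a block, 4714, 4325 and 11 at a threshold of 0.01, and 2222 and 2619 at 2-fold or more. With no filter 5103 passed in clone 3 and 7 between the clones, where normexp gave 46 and the variance trend 62. Without 1 array the counts were 6223 to 7926 in clone 1, 5150 to 7464 in clone 3 and 8 to 61 between the clones. The SE of each of the 10 genes was larger with the row block, in clone 1 and in clone 3. For Ptpn1 it was 0.20 and 0.27 against 0.14 and 0.15, and for Ptpn22 0.15 and 0.19 against 0.14 and 0.16. The part of this loss of precision in the lower counts was not tested. No paired analysis was possible because the replicate numbers only follow the order of deposit and the labels give none. Signal over background did not limit the members, whose probes were all well above it.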
